A study of Mus musculus with 11 samples.

Results

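The Wnt pathway genes described here are 39 members of the 22367 protein-coding genes annotated on the chromosomes of the maps: 19 Wnt ligands, 12 receptors (10 Frizzled receptors with the co-receptors Lrp5 and Lrp6) and 8 effectors and modulators (Ctnnb1, Axin2, Lef1, Tcf7, Tcf7l1, Tcf7l2, Dkk1 and Rspo2). They were chosen by name, and the values are those of every deposited ATAC-seq region that overlaps the mm9 body of a member extended by 10 kb on each side. All 39 members were found, and their windows held 245 of the 131942 regions, counted once each, with 6 regions lying in more than 1 window. Wnt proteins are secreted, lipid-modified ligands that bind Frizzled receptors, and in the canonical branch the co-receptors Lrp5 and Lrp6 join them. This binding keeps β-catenin, the product of Ctnnb1, from being degraded, so that it can act in the nucleus with the TCF and LEF factors on target genes such as Axin2. Around the boundary of midbrain and hindbrain, Wnt1 marks an organising centre of the embryo, and Wnt1 and Wnt5a are known for their part in the development of dopaminergic (DA) neurons.

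ATAC-seq, in which a transposase cuts accessible DNA and places where the cuts gather are called as peaks, was available for 3 DA libraries and 2 serotonergic (5-HT) libraries of mouse embryos at E14.5. DA cells were sorted as GFP+ from the ventral mesencephalon of TH-GFP embryos, a line kept on C57BL/6J whose GFP is driven by a rat Th promoter. The cells labelled 5-HT were sorted as YFP+ from rhombomeres r1 to r3 of embryos with a CRE driver and a ROSA YFP reporter. In both groups the fathers were transgenic and the mothers Swiss wild type, each library was a sort of its own, and each sort pooled tissue of several embryos. The brain region, the reporter line and the number of sorted cells, which was lower for 5-HT, changed together with the cell type, so their parts cannot be told apart. The 3 RNA-seq samples of each cell type were not analysed here.

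Every region has a score in each library, on a scale that the files leave unnamed, and where no peak was called it is 0. Read counts are not given, so the depth is unknown and yield can be judged by peak numbers alone. Wherever 5 values are listed, they stand for the DA libraries in the order of their replicates and then for the 5-HT libraries. The peaks numbered 52861, 93055, 94351, 38772 and 22879, the lowest score of a peak was 3.45, 3.04, 3.03, 3.37 and 2.83, and the median score was 5.12, 4.44, 4.01, 4.48 and 3.69. A region was called DA-specific with a peak in all 3 DA libraries and in neither 5-HT library, 5-HT-specific in the reverse case, and common with a peak in all 5. Because the libraries differ so much in yield, many counts, though not all, are also given after every library was limited to its top 22879 peaks by score, as many as the smallest library holds. This is called the equal peak number.

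The labels were first set against promoter peaks of marker genes. The 10 dopaminergic genes all had a promoter peak in each DA library, against 7 in 5-HT replicate 1 and 6 in replicate 2, and their scores summed to 74.0, 77.9, 67.0, 34.8 and 19.8. Pitx3 led in the DA libraries, Nr4a2 in 5-HT replicate 1 and En1 in replicate 2. At the equal peak number these counts were 8, 7, 7, 6 and 6, closer together. The promoter of Th, which encodes the first enzyme of dopamine synthesis and whose rat counterpart lent the sorted reporter its promoter, scored 9.91, 10.6, 8.45, 0 and 0 and was kept in the DA libraries alone. Lmx1a, a determinant of midbrain DA progenitors, scored 5.0, 5.62, 4.09, 0 and 0 and was kept in no library. The serotonergic list separated the groups less. Of 7 serotonergic genes, 4, 5 and 4 had a promoter peak in the DA libraries and 5 and 2 in the 5-HT libraries, with summed scores of 27.7, 29.4, 25.5, 24.8 and 11.1 and with 3, 2, 2, 4 and 2 at the equal peak number. The promoter of Slc6a4, the serotonin transporter, had peaks in the DA libraries alone with 4.8, 6.56, 3.76, 0 and 0. Fev, a factor of serotonergic identity, scored 3.88 in 5-HT replicate 1 and 0 in the other 4 libraries, and Slc22a3 was at 0 in all 5. Tph2, the enzyme of serotonin synthesis in neurons, scored 9.91, 7.59, 11.1, 7.09 and 3.59. Gata3, a factor of serotonergic development, scored 6.98, 4.52, 4.65, 5.17 and 7.51, highest in 5-HT replicate 2, and Gata2 scored 0, 3.11, 0, 4.2 and 0, highest in replicate 1. Lmx1b, which both lists hold, scored 6.0, 7.62, 6.01, 4.44 and 0. Promoter peaks of this list thus did not all run the way of the label, and the 5-HT libraries are called by it here.

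Markers of other cell types were present as well. All 5 radial glia and progenitor genes had promoter peaks in every library, with summed scores of 25.1, 28.4, 25.0, 22.8 and 18.3 and the highest score at Hes1 in the DA libraries, Sox2 in 5-HT replicate 1 and Hes5 in replicate 2. At the equal peak number 1 of the 5 remained in each DA library, against 3 and 5 in the 5-HT libraries. GABAergic promoters behaved alike, with 3, 3, 3, 3 and 2 of 3 genes as deposited, summed scores of 14.9, 13.9, 12.9, 13.3 and 6.6, and 0, 0, 0, 2 and 2 at the equal peak number. Gad2 led this list in both 5-HT libraries. The oligodendrocyte lineage list, led by Pdgfra in 4 libraries and by Olig2 in 5-HT replicate 2, had 1, 2, 2, 2 and 2 of 3 promoters with a peak and summed scores of 5.33, 11.0, 10.2, 9.66 and 8.03, with Sox10 at 0 in all 5. It kept 0, 0, 0, 2 and 2 at the equal peak number. The part of these cells in the results on the Wnt genes was not tested. Among glutamatergic genes Slc17a6 scored 9.97, 12.9, 12.8, 3.65 and 0, and Slc17a7 was at 0 throughout. Astrocyte promoters with a peak numbered 1, 3, 2, 1 and 1 of 3, with summed scores of 6.91, 15.9, 10.8, 6.92 and 3.2, led by Gfap in all libraries but 5-HT replicate 2. Endothelial promoters numbered 2, 2, 2, 2 and 0 of 3, led by Cldn5, with summed scores of 9.09, 9.1, 9.5, 8.52 and 0 and Pecam1 at 0 in all 5. Pericyte promoters, led by Pdgfrb, numbered 0, 2, 1, 0 and 0 of 2 with summed scores of 0, 7.61, 3.12, 0 and 0. Noradrenergic promoters numbered 0, 1, 1, 0 and 0 of 3 with summed scores of 0, 3.18, 3.21, 0 and 0 and Dbh at 0, and the 3 microglial promoters of Cx3cr1, Csf1r and Aif1 had no peak in any library. At the equal peak number Slc17a6 was kept in the DA libraries alone, and 1 astrocyte promoter in each library. Endothelial promoters then numbered 0, 0, 0, 1 and 0, and pericyte and noradrenergic ones 0 in all 5.

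Of the 245 Wnt regions, 43 were DA-specific (17.6%), beside 13.4% of all regions. A further 36 were common (14.7%, beside 12.8% of all regions), and 0 were 5-HT-specific, beside 0.389% of all regions, a share that gives 0.953 of 245. Among the 106 Wnt regions present in all 3 DA libraries, the DA-specific share was 40.6% (95% Wilson interval 31.7 to 50.1%, counting error only), and it was 38.6% over the maps. This comparison moved with the number of peaks used. At the equal peak number the share was 20.0%, beside 16.9% over the maps, with the upper 50% of each library's peaks it was 54.2% (26 of 48), beside 36.8%, and with 10000 peaks per library 42.9% (3 of 7), beside 11.0%. Limited to the equal peak number, 6 Wnt regions were DA-specific, beside 2.14% of all regions, 5 were 5-HT-specific, beside 1.79%, and 19 were common, beside 8.34%. Leaving out DA replicate 1 gave 70 DA-specific regions (28.6%, beside 25.0% of all regions) and leaving out 5-HT replicate 1 gave 69 (28.2%, beside 20.8%). The 5-HT-specific count was 6 without 5-HT replicate 1 (2.45%, beside 1.62%) and 15 without 5-HT replicate 2 (6.12%, beside 3.86%), and the common count was 62 without 5-HT replicate 2 (25.3%, beside 20.2%).

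Peaks were present at 47.3%, 82.4%, 63.3%, 35.9% and 18.0% of the Wnt regions. The groups did not overlap, but over all regions near protein-coding genes the same shares were 45.8%, 76.9%, 71.0%, 35.2% and 22.4%. With equal peak numbers the Wnt shares were 15.1%, 15.9%, 15.1%, 15.1% and 18.0%, beside 22.1%, 22.4%, 21.7%, 22.3% and 22.4% of the regions near protein-coding genes, so each Wnt share was the lower one and the order of the groups did not hold there. A peak in a 5-HT library and in no DA library was found in 21 Wnt regions (8.57%, beside 5.09% of all regions), 15 of them in replicate 1 alone and 6 in replicate 2 alone.

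The regions were not spread evenly over the genes. Windows held from 2 to 31 regions with a median of 5. The number per 100 kb of window ran from 3.24 at Wnt2 to 25.0 at Wnt1, with a median of 9.64. Around all protein-coding genes there were 6.31 regions per 100 kb, a figure that is not a median over genes. By position, 44 regions overlapped a promoter of a member (1 kb upstream to 100 bp downstream of any annotated TSS), 194 were distal, overlapping no annotated promoter, and 7 overlapped promoters of neighbours (Arf3, Tgoln1, Fbxl14, Ppp6r3, Fbxo16, Gm5972 and Gm15401). Median widths were 1312 bp for member promoters and 330 bp for distal regions. DA-specific Wnt regions were narrower than common ones, with medians of 544 and 1356 bp, and over the maps these medians were 523 and 1091 bp.

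Promoter peaks differed between the roles. A promoter with a region common to all 5 libraries was found for 1 of 19 ligands, 9 of 12 receptors and 6 of 8 effectors and modulators, 16 of 39 in all, beside 48.3% of protein-coding genes. These counts were 0, 6 and 4 at the equal peak number, beside 38.0% of protein-coding genes, so ligands had the lowest share in both cases. Promoters with a DA-specific region and no peak in a 5-HT library numbered 2, those of Wnt9b and Tcf7, beside 1.97% of protein-coding genes, and 0 at the equal peak number, beside 0.416%. Without 5-HT replicate 2, a common promoter region was found for 7 ligands (36.8%; Wnt2, Wnt2b, Wnt5a, Wnt5b, Wnt7a, Wnt11 and Wnt16), 10 receptors (83.3%) and 7 effectors and modulators (87.5%), beside 56.3% of protein-coding genes, so ligands still had the lowest share. The 2 promoters with DA peaks alone came to 4 when DA replicate 1 was left out (10.3%, beside 3.08% of protein-coding genes) and to 10 when 5-HT replicate 1 was (25.6%, beside 9.87%). The promoter sequences had a median GC content of 58.7% in ligands, 56.2% in receptors and 55.1% in effectors and modulators, and a median CpG observed to expected ratio of 0.622, 0.678 and 0.627. This ratio had a median of 0.654 in the 16 members with a common promoter region and 0.662 in the other 23. The part of base composition in the promoter peaks was not tested. Over all protein-coding genes the medians were 49.1% and 0.401.

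**Figure D1:**
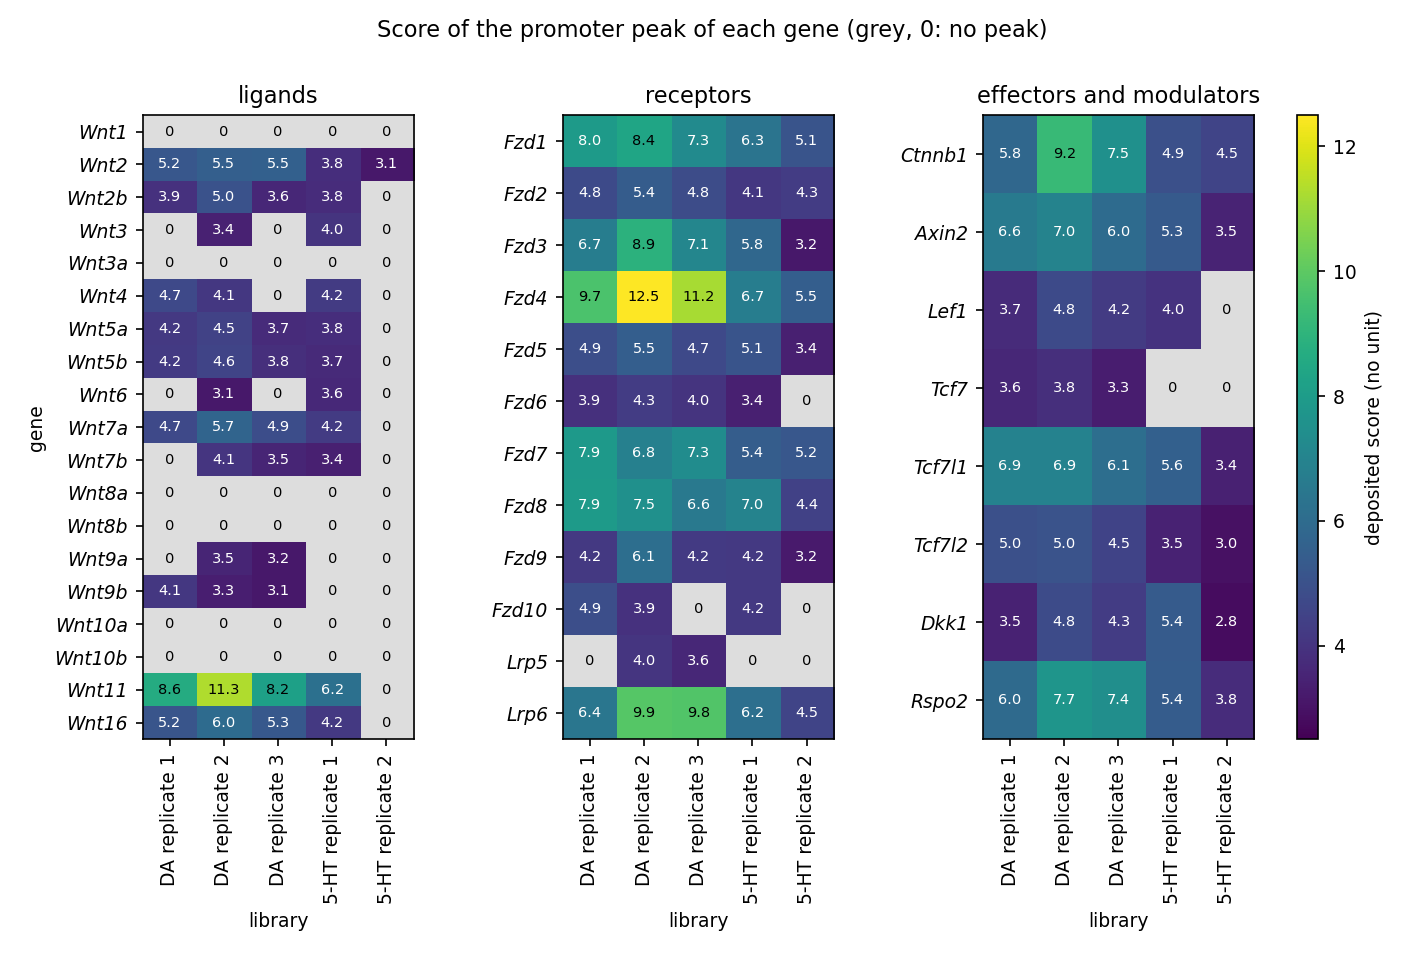
Deposited score (colour and printed value, no unit) of the promoter region of each gene (vertical axis) in the 3 DA and 2 5-HT libraries (horizontal axis), for the region found in the most libraries, with 0 in grey where there is no peak. Most receptors and effectors are filled in every library, 6 ligands are empty, and 5-HT replicate 2 has a ligand peak at Wnt2 alone.

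Among the ligands, Wnt2 was the member with a promoter peak in all 5 libraries. Its region chr6:17979898-17982345 scored 5.21, 5.53, 5.55, 3.81 and 3.15, each DA library above both 5-HT libraries. Promoter peaks of Wnt2b, Wnt5a, Wnt5b, Wnt7a, Wnt11 and Wnt16 were found in every library but 5-HT replicate 2. Wnt5a, a ligand best known for branches of the pathway that do not use β-catenin, scored 4.17, 4.48, 3.73, 3.79 and 0 at chr14:29317701-29319260. Wnt7a, which acts through β-catenin in the developing brain and its vessels, scored 4.69, 5.74, 4.88, 4.23 and 0. In 5-HT replicate 1 the scores of Wnt2b, Wnt5a, Wnt5b, Wnt7a and Wnt16 all lay under the median of its peaks. Wnt11 had higher scores, with 8.64, 11.3, 8.17, 6.2 and 0 in the 446 bp region chr7:105986377-105986822, which lies at the TSS of a shorter transcript inside the gene. At the first TSS of Wnt11 the region chr7:105983187-105983866 scored 0, 3.67, 3.47, 0 and 0. The inner region was the only ligand promoter region found in all 3 DA libraries at the equal peak number. It was kept in 5-HT replicate 1 too.

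Wnt9b, which acts in the kidney and face, had a DA-specific promoter region with scores of 4.11, 3.33, 3.13, 0 and 0, each under the median score of its DA library. A second promoter of Wnt5b, inside the gene at chr6:119398499-119399477, was also DA-specific with 5.49, 3.32, 3.91, 0 and 0, while the upstream promoter of the gene scored 4.21, 4.57, 3.84, 3.7 and 0. Wnt3, Wnt4, Wnt6, Wnt7b and Wnt9a had promoter peaks in 2 or 3 libraries, for Wnt4 with 4.7, 4.14, 0, 4.24 and 0. Wnt1, Wnt3a, Wnt8a, Wnt8b, Wnt10a and Wnt10b had no promoter region in any library. In 5-HT replicate 1, 11 of 19 ligand promoters had a peak, about as many as in the DA libraries with 9, 13 and 10, whereas 5-HT replicate 2 had 1. Of all protein-coding genes, 59.8%, 63.7%, 62.0%, 58.2% and 49.6% had one.

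Ligand windows held 78 distal regions, 15 of them DA-specific (19.2%) and 6 common (7.69%), beside 15.5% and 5.99% of the distal regions near protein-coding genes. With 31 distal regions in all 3 DA libraries, the DA-specific share was 48.4% (Wilson interval 32.0 to 65.2%), beside 52.1% for distal regions near protein-coding genes. Over all roles 38 of 194 distal regions were DA-specific (19.6%), beside 15.5% of the distal regions near protein-coding genes. For each role the 3 distal DA-specific regions, and the common one, whose lowest rank in any DA library or any of the 5 libraries was highest are named. The first of the ligands lay 3898 bp upstream of Wnt8a at chr18:34697928-34698211, with 8.06, 7.71, 8.62, 0 and 0. It was the only ligand region that stayed DA-specific at the equal peak number, 1.28% of the 78 distal ones beside 2.57%, although Wnt8a itself had no promoter peak. The next were an intronic region 1218 bp downstream of the TSS of Wnt4, a ligand of kidney and gonad development, with 5.23, 5.55, 3.88, 0 and 0, and an intronic region of Wnt9a with 5.11, 4.84, 3.83, 0 and 0.

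Wnt1, the organiser ligand, had no peak from 1 kb upstream to 100 bp downstream of its TSS but the highest density of regions. Its window held 6 regions, none with a peak in a 5-HT library, and 4 of the 6 were DA-specific, beside 13.4% of all regions. The region 9042 bp upstream, chr15:98611021-98611471, scored 4.48, 5.62, 4.79, 0 and 0 and lies between Wnt1 and Wnt10b, whose window shares it. It is upstream of both genes and nearer to the TSS of Wnt10b, at 98608581, than to that of Wnt1, at 98620288. A region over an exon of Wnt1, chr15:98622920-98623447, scored 4.43, 4.04, 3.91, 0 and 0, and one 8346 bp downstream of the TSS, past the end of the gene, scored 3.75, 5.12, 3.82, 0 and 0. The last of the 4, chr15:98618450-98618640, lies 1743 bp upstream of the TSS and scored 4.49, 7.22, 4.63, 0 and 0. A promoter drawn from 2 kb upstream would hold it, so the lack of a promoter peak rests on the 1 kb limit. This one was kept in DA replicate 2 alone at the equal peak number, and the other 3 in no library. These regions in the window of Wnt1 were singled out after their values were seen.

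A common region upstream of Wnt2b ranked higher within both 5-HT libraries. This region, 5966 bp upstream of the TSS, chr3:104770013-104771173, scored 4.79, 4.83, 5.46, 6.2 and 4.64, highest in 5-HT replicate 1 and lowest in replicate 2. Of the peaks of each library, 43.5, 56.7, 71.3, 79.8 and 75.2% scored as low or lower, and it was 5-HT-specific at the equal peak number. A common region in an intron of Wnt3a, a ligand of the dorsal neural tube, scored 6.09, 6.77, 8.15, 4.24 and 2.87 although the Wnt3a promoter had no peak. Wnt10a likewise had no promoter peak and 2 common regions, the one over an exon with 7.03, 12.4, 6.63, 6.08 and 3.07.

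**Figure D2:**
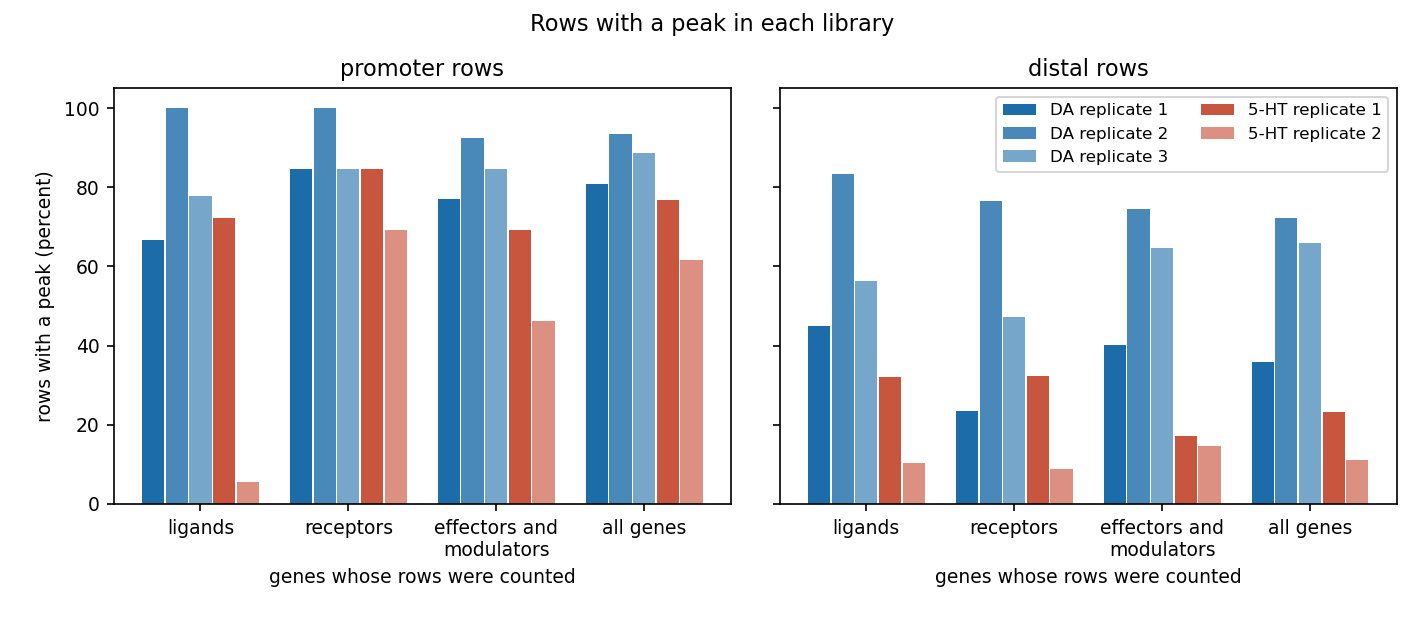
Percent of regions with a peak (vertical axis) in each of the 5 libraries (bars), for promoter regions on the left and distal regions on the right, by role and over all genes (promoters of any gene, distal regions near protein-coding genes). Ligand promoters drop to 5.56% in 5-HT replicate 2, while receptor promoters stay at 69.2%.

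Frizzled receptors were open at nearly all promoters. Fzd1, Fzd2, Fzd3, Fzd4, Fzd5, Fzd7, Fzd8 and Fzd9 had a peak in all 5 libraries. Fzd4, whose region chr7:96551438-96553887 also covers the promoter of the neighbour Tmem135, scored 9.66, 12.5, 11.2, 6.72 and 5.47. Fzd1 scored 7.95, 8.36, 7.3, 6.34 and 5.1, and Fzd7, a receptor much used by progenitor cells, 7.91, 6.85, 7.35, 5.44 and 5.2. The widest promoter region of all members was that of Fzd8, chr18:9210775-9215219 with 4445 bp, which reaches from upstream of the TSS into the gene, and it scored 7.94, 7.5, 6.56, 6.98 and 4.44. The DA scores of Fzd1, Fzd4 and Fzd7 lay above both 5-HT scores, whereas those of Fzd8 overlapped with 5-HT replicate 1. Fzd3, a receptor of axon guidance, scored 6.74, 8.92, 7.09, 5.85 and 3.16, Fzd2 4.76, 5.4, 4.84, 4.13 and 4.29, and Fzd9 4.16, 6.11, 4.21, 4.15 and 3.22, in the same direction on that scale. Ranked within each library the groups overlapped at Fzd1, Fzd2, Fzd3, Fzd7 and Fzd9, for Fzd2 with 42.9, 64.0, 64.4, 39.2 and 68.2% of the peaks at or below its score and for Fzd9 with 28.4, 70.9, 54.4, 40.1 and 26.8%. Fzd1, Fzd3, Fzd4, Fzd7 and Fzd8 kept a common region at the equal peak number.

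Fzd6 and Fzd10 were the Frizzled genes outside this group. Fzd6, known for its part in planar polarity, scored 3.89, 4.27, 4.01, 3.37 and 0 at its promoter, and Fzd10 scored 4.92, 3.91, 0, 4.15 and 0. Of the co-receptors, Lrp6 scored 6.43, 9.88, 9.77, 6.16 and 4.55 at its promoter, whereas Lrp5 had a peak in DA replicates 2 and 3 alone, with 0, 4.05, 3.62, 0 and 0. Lrp6 kept its promoter peak in all 5 libraries at the equal peak number and Lrp5 in none.

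Receptor windows held 34 distal regions, the fewest of the 3 roles, with 3 DA-specific (8.82%, beside 15.5% of distal regions near protein-coding genes) and 2 common regions (5.88%, beside 5.99%). Of the 34, 4 were DA-specific at the equal peak number (11.8%, beside 2.57%), 3 of them in the window of Lrp6. In Fzd6 the intronic region chr15:38851062-38851330, 13317 bp downstream of the TSS, scored 7.2, 6.9, 6.31, 0 and 0, above its promoter in every DA library. A region over an exon of Lrp6, chr6:134400071-134400236, scored 6.49, 7.76, 6.78, 0 and 0. Both stayed DA-specific at the equal peak number. The DA-specific region past the end of Lrp5, chr19:3581442-3581595, scored 5.42, 11.3, 6.83, 0 and 0 and fell below that limit in DA replicate 1.

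Lrp6 also had regions that were strong in DA libraries and weak in 5-HT replicate 1. Its intronic region chr6:134465147-134465820 scored 10.9, 14.7, 18.8, 4.07 and 0, and chr6:134450500-134451111 scored 5.79, 7.12, 8.45, 4.11 and 0. Both became DA-specific at the equal peak number, so that 3 of the 6 DA-specific Wnt regions there lay in the window of Lrp6. They were named after their values were seen. The distal common receptor region with the highest lowest rank lay past the end of Lrp6, at chr6:134389293-134390619, with 5.9, 7.47, 6.16, 3.81 and 3.63. The promoter region of Fzd5, chr1:64782235-64784946, scored 4.9, 5.48, 4.72, 5.11 and 3.39 and was 5-HT-specific at the equal peak number alone, while the groups overlapped in score and percentile.

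All 8 effectors and modulators had a promoter peak in each DA library. Ctnnb1, the gene of β-catenin, had its common region 4729 bp downstream of its first TSS, at that of a shorter transcript, where it scored 5.84, 9.22, 7.53, 4.93 and 4.54. Axin2, the scaffold of the complex that degrades β-catenin and a general feedback target, scored 6.59, 6.99, 6.01, 5.33 and 3.5, and Tcf7l1, the member of the TCF family best known as a repressor, 6.94, 6.94, 6.13, 5.56 and 3.43. Tcf7l2, a TCF factor of the midbrain and thalamus, scored 4.95, 5.04, 4.52, 3.46 and 2.96, close to the lowest score in the 5-HT libraries. A further promoter region of Tcf7l2, at a shorter transcript 153791 bp into the gene, scored 7.75, 6.13, 5.2, 4.14 and 0. The first region of each of these 4 genes was common, and those of Ctnnb1, Axin2 and Tcf7l1 stayed so at the equal peak number.

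The other TCF/LEF genes had no common promoter region. Lef1 had a DA-specific region across its TSS, chr3:130812371-130813481, with its centre 463 bp upstream and with 4.21, 4.23, 4.58, 0 and 0. Another promoter region of Lef1, 1363 bp downstream of that TSS, scored 3.73, 4.75, 4.23, 3.95 and 0. Tcf7, known from lymphocytes, scored 3.63, 3.83, 3.3, 0 and 0 at chr11:52096500-52096932. Neither gene kept a promoter peak in any library at the equal peak number.

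Effector and modulator windows held 82 distal regions, of which 20 were DA-specific (24.4%, beside 15.5% of those near protein-coding genes) and 7 common (8.54%, beside 5.99%). Of the 30 in all 3 DA libraries, 66.7% were DA-specific (Wilson interval 48.8 to 80.8%), an interval that holds the 52.1% of distal regions near protein-coding genes. At the equal peak number 1 of the 82 was DA-specific (1.22%), beside 2.57% of distal regions near protein-coding genes, and 2 were 5-HT-specific (2.44%), beside 1.58%. The window of Tcf7l1 had the most regions of any member with 31. Of these, 7 were DA-specific, beside 13.4% of all regions, and 8 common, beside 12.8%, with the promoter of Tgoln1 among the latter. At the equal peak number 0 were DA-specific, beside 2.14%, and 3 common, beside 8.34%. The intronic common region chr6:72597282-72597779 of Tcf7l1 scored 6.43, 8.41, 6.49, 5.73 and 3.38. Another intronic region of Tcf7l1, chr6:72680249-72680969, went the other way with 3.71, 3.85, 3.08, 4.86 and 4.55, both 5-HT libraries above every DA library in score. It was 5-HT-specific at the equal peak number. So was chr6:72661210-72662184 in the same gene with 5.01, 5.94, 4.86, 4.79 and 2.95, although each of its DA scores lay above both 5-HT scores. Both regions were singled out after their values were seen.

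Axin2 had 7 regions. Of these, 4 were DA-specific, beside 13.4% of all regions, and all 4 were distal. They lay 2416 bp upstream of the TSS with 5.36, 5.88, 5.38, 0 and 0, in introns 4975 bp and 27258 bp downstream with 5.14, 5.12, 4.5, 0 and 0 and with 4.91, 5.72, 5.5, 0 and 0, and past the end of the gene at chr11:108819627-108820060 with 5.38, 7.71, 6.3, 0 and 0. In each the 3 DA libraries had a peak and the 5-HT libraries none, but none of the 4 was DA-specific at the equal peak number. Apart from the last, they were singled out after their values were seen. In Tcf7, the intronic region chr11:52079547-52079960 scored 5.84, 6.53, 5.89, 0 and 0, above the promoter of the gene.

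The secreted modulators differed from each other. Rspo2, which raises Wnt signalling by keeping Frizzled receptors at the surface, had a common promoter region with 5.95, 7.73, 7.43, 5.42 and 3.75. Its intronic region chr15:42999062-42999518, 3074 bp from the TSS, had the highest score of all DA-specific Wnt regions in each DA library, with 11.5, 12.4, 13.9, 0 and 0. It ranked at position 2908, 4908 and 2079 from the strongest peak of the DA libraries. Another 3 intronic regions of Rspo2 were DA-specific, so that 4 of the 15 regions in its window were, beside 13.4% of all regions. At the equal peak number 1 of the 15 was, beside 2.14%. Of the other 3, the region 55757 bp from the TSS scored 4.09, 4.9, 5.45, 0 and 0. Dkk1, an inhibitor that binds Lrp5 and Lrp6, scored 3.45, 4.8, 4.28, 5.39 and 2.84 at its promoter, which was 5-HT-specific at the equal peak number alone. There 5-HT replicate 2 keeps all its peaks, and its score lay next to its lowest of 2.83. The groups overlapped in score and percentile. A common region 5023 bp upstream of Dkk1 had scores of 9.21, 9.7, 10.8, 4.89 and 3.06.

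**Figure D3:**
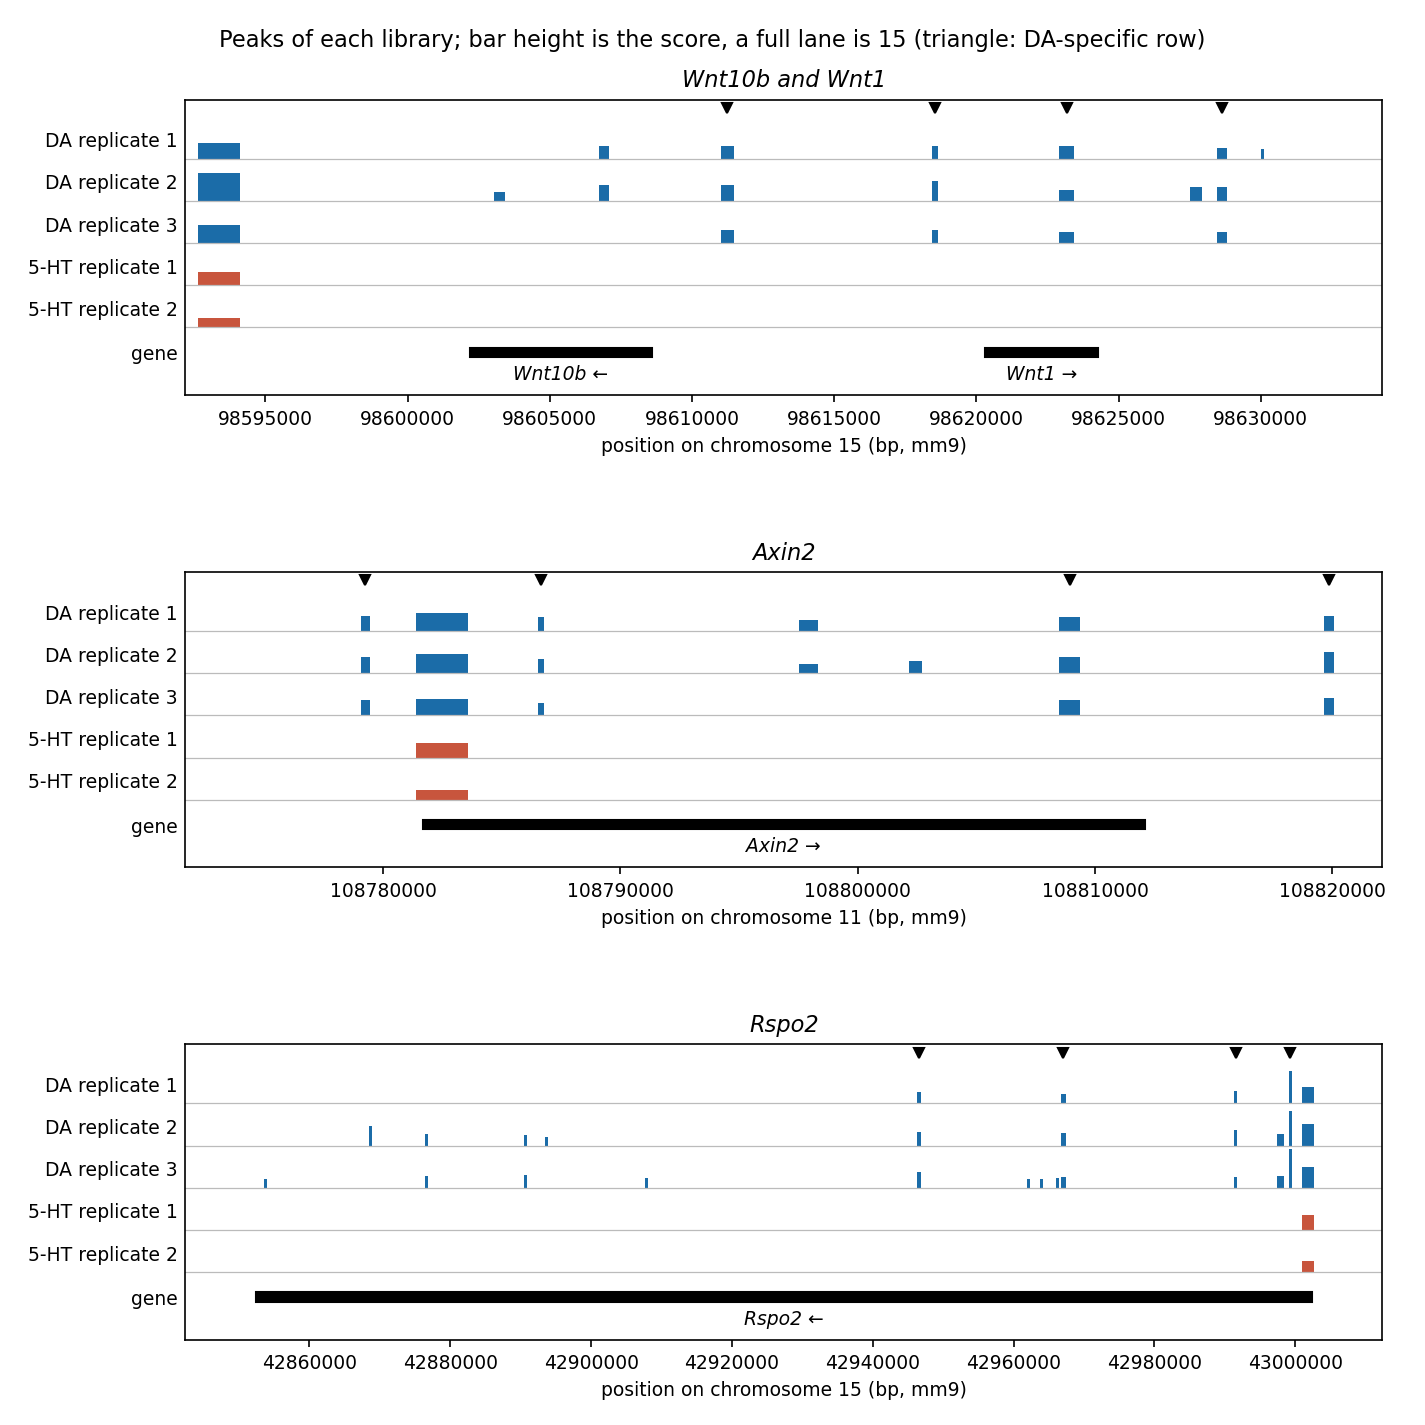
Peaks in the windows of Wnt10b and Wnt1, Axin2 and Rspo2 along mm9 (horizontal axis, bp), 1 lane for each library (DA blue, 5-HT red) with bar height giving the score (no unit), triangles marking DA-specific regions and black bars the genes with their direction. Both 5-HT libraries have a peak at the promoters of Axin2 and Rspo2 and at that of Arf3 beside Wnt10b, and none elsewhere in these windows.

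For the 36 common regions the libraries could be compared in level, by the percent of the peaks of a library with a lower or equal score. This percentile was higher in every DA library than in both 5-HT libraries in 19 of the 36, beside 51.2% of all common regions, and lower in 2, beside 1.58%. Of the 16 common member promoters, 5 had every DA library above by percentile, those of Axin2, Tcf7l1, Tcf7l2, Wnt2 and Fzd4, beside 56.3% of the common promoter regions of any gene. Of the 16, the promoter of Tcf7l2 had the largest difference of mean percentile, so a test on it decides nothing. Its mean was 55.4 ± 7.45 (SD, n = 3) in DA and 10.7 ± 2.74 (SD, n = 2) in 5-HT libraries, with p = 0.1 by a two-sided exact permutation test. That is the smallest p that the 10 divisions of the 5 libraries allow, so no region could reach 0.05. At the Fzd1 promoter the percentiles were 83.3 ± 1.95 (SD, n = 3) and 81.5 ± 0.225 (SD, n = 2), with p = 0.4 by the same exact permutation test. The intronic region chr6:72680249-72680969 of Tcf7l1 went the other way, with 20.1 ± 14.1 (SD, n = 3) and 66.6 ± 10.0 (SD, n = 2) and p = 0.1 by this exact permutation test. It was singled out after its values were seen, so that choice fixed the result of its test, which decides nothing. Counted instead from the strongest peak, a scale chosen after the data were seen, 3 of the 36 stood higher in every DA library, beside 11.4% of all common regions, and 14 lower, beside 30.0%. By the score itself 31 stood higher, beside 81.1%, so the direction rested on the scale. For the 16 member promoters it did so too, with 0 higher and 9 lower by position, beside 12.8% and 23.9% of common promoter regions of any gene, and 13 higher by score, beside 88.4%. The promoter of Tcf7l2 stood at 28133, 37567, 37991, 33876 and 20877 from the strongest peak, so that its groups overlapped on this scale.

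The windows were searched for CTTTGAA and CTTTGAT on both strands, core words of TCF/LEF binding. Each region was first read over 200 bp around its middle, which reaches past the ends of narrower regions. In the central 200 bp, 22 of 245 Wnt regions held at least 1 (8.98%, Wilson interval 6.0 to 13.2%), beside 7.22% of all regions, and for DA-specific Wnt regions it was 3 of 43 (6.98%, Wilson interval 2.4 to 18.6%), beside 8.15% of all DA-specific regions. For common Wnt regions it was 3 of 36 (8.33%, Wilson interval 2.87 to 21.8%), beside 3.92% of all common regions. Each of these backgrounds lay within the interval of the Wnt share. Over whole regions, Axin2 had the most words of any member, 7 in 3 of its regions, followed by Rspo2 with 5. Its promoter region alone held 4, or 1.81 per kb, and among 9027 promoter regions of any gene at least 1 kb wide, 33 (0.366%) held as many or more and 63 (0.698%) as many per kb, a count made after the words of Axin2 were seen. A match is only a run of letters and says nothing of a bound factor. A stretch of that region between annotated exons holds 2 of them, shown with the words in capitals (mm9, plus strand, 5′ to 3′).
Axin2 promoter region chr11:108782508-108782649: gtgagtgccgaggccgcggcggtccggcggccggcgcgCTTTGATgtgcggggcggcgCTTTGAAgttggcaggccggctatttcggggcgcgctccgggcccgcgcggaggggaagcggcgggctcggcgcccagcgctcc

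The next sequences are shown because they belong to the DA-specific regions named above for Rspo2, Fzd6, Axin2, Wnt1, Wnt4 and Tcf7, of which those of the Axin2 intron and Wnt1 were chosen after their values were seen. Both of these hold words, whereas the other DA-specific regions of Axin2 and Wnt1 chosen that way hold none and are not shown. The Wnt9a and Lrp5 stretches, named by the rule, hold none either and are not shown. The stretch labelled Wnt1 upstream lies nearer to the TSS of Wnt10b. All sequences printed lie outside annotated exons and are written again on the plus strand of mm9 with the words in capitals where there are any. Their GC content was 44.0%, 50.9%, 52.3%, 58.3%, 59.3%, 53.4% and 55.0% in the order printed. The Rspo2, Wnt1 and Tcf7 stretches and both Axin2 stretches are 300 bases of longer regions, placed to hold as many of the words as possible and otherwise at the centre, so that where words stand in them describes nothing.
Rspo2 intron chr15:42999098-42999397: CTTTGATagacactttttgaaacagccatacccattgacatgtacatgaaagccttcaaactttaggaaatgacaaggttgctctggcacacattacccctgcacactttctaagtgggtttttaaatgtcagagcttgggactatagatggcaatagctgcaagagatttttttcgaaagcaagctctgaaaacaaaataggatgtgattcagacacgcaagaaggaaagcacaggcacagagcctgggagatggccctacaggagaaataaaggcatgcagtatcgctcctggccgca
Fzd6 intron chr15:38851062-38851330: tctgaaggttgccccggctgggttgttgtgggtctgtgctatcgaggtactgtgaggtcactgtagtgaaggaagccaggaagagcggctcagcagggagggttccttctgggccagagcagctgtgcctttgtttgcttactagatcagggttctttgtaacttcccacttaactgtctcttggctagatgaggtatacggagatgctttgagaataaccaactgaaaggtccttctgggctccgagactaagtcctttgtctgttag
Axin2 intron chr11:108808684-108808983: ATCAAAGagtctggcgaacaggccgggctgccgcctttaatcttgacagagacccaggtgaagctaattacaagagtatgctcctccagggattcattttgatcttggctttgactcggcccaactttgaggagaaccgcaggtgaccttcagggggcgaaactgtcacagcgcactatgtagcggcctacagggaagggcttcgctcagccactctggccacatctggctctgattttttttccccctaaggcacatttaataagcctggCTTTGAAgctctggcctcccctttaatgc
Axin2 downstream chr11:108819694-108819993: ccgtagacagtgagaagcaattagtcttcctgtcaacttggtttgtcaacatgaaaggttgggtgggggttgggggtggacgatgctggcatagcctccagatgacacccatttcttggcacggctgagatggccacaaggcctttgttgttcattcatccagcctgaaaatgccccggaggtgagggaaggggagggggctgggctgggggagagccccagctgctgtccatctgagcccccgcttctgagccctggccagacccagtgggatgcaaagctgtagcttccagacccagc
Wnt1 upstream chr15:98611164-98611463: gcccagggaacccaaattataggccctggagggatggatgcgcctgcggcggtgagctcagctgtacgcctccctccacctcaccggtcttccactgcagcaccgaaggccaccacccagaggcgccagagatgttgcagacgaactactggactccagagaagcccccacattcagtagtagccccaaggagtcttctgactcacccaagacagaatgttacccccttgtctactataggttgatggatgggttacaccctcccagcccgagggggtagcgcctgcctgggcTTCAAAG
Wnt4 intron chr4:136834483-136834761: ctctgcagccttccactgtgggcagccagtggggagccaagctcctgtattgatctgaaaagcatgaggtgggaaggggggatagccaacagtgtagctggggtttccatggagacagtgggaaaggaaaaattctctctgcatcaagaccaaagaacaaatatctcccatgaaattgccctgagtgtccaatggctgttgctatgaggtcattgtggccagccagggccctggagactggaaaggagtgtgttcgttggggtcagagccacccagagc
Tcf7 intron chr11:52079604-52079903: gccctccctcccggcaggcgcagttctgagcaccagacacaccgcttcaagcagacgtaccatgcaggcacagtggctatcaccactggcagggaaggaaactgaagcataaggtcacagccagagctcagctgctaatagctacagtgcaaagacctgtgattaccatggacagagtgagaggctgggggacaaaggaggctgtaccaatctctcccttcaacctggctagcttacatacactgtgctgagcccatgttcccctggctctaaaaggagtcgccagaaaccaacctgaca

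Another 54 genes of the pathway, from ligand secretion to planar polarity, were counted by the same rule. Their windows held 379 regions, 67 of them DA-specific (17.7%, beside 13.4% of all regions), 75 common (19.8%, beside 12.8%) and 1 5-HT-specific (0.264%, beside 0.389%). A promoter with a common region was found for 35 of the 54 (64.8%), beside 48.3% of protein-coding genes. With equal peak numbers, 9 regions were DA-specific (2.37%, beside 2.14%), 47 were common (12.4%, beside 8.34%) and 8 were 5-HT-specific (2.11%, beside 1.79%). Gsk3b, the kinase that marks β-catenin for degradation, scored 21.2, 28.5, 24.6, 13.5 and 12.1 at its promoter. Wls, which carries Wnt ligands to the cell surface, scored 6.02, 6.15, 6.66, 4.87 and 3.53, and Porcn, the enzyme that adds their lipid, 6.37, 7.65, 6.05, 3.81 and 0. Both groups had a peak at the first and second of these, and 5-HT replicate 2 had none at Porcn. Promoters of Dkk3, Rspo4 and Sostdc1 had a DA-specific region and no 5-HT peak, 5.56% of the list beside 1.97% of protein-coding genes. The single 5-HT-specific region lay in the window of Celsr1, a planar polarity cadherin, with 0, 0, 0, 3.45 and 3.02.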

How the data were processed

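ATAC-seq peak maps of 3 DA and 2 5-HT libraries were used, and the RNA-seq samples were not analysed here. According to the study's methods, Trimmomatic served the authors for trimming, Bowtie2 for mapping to mm9, Picard for discarding duplicates, MACS2 for calling the peaks of every library, and BEDOPS for joining peaks under 100 bp apart. Versions, and the step that gave all libraries the same regions, are not stated. The value used is the deposited score of each region and library, whose scale is not named. Its meaning as presence or absence of a peak was read from the values, and 1 region with a misspelled chromosome was read as chromosome Y. Genes and TSSs came from GENCODE M1 on the same build. Counts and tests used pandas 2.3.3, NumPy 2.4.6 and SciPy 1.17.1 under Python 3.11.15, sequences were read with pysam 0.24.0, and figures drawn with matplotlib 3.10.9.

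A region counted for a window or promoter with an overlap of 1 bp. Promoters reached from 1000 bp upstream to 100 bp downstream of a TSS. For the equal peak number, ties at the lowest kept score were kept, so that DA replicate 3 had 22880. The permutation test went over the 10 divisions of the libraries into 3 and 2. Regions named by rule were, in each role, the 3 distal DA-specific regions with the highest lowest percentile over the DA libraries, and the distal common region with the highest lowest percentile over all 5, besides all member promoters. Any other region named, such as those of Wnt3a, Wnt10a and upstream of Dkk1, was picked with its values known. The members, marker lists (dopaminergic, serotonergic, GABAergic, glutamatergic, noradrenergic, radial glia and progenitor, astrocyte, oligodendrocyte, endothelial, pericyte, microglial) and pathway list were chosen with earlier results of these data known. Alternatives changed the number of peaks, window, promoter, overlap, merging, word window and score scale, added a replicate block, and left out each library in turn. The counting was tested on simulated data. The gene whose promoter drives CRE in the 5-HT line is not reported here.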

Additional observations from a re-analysis of the deposited data

How the results depend on the processing

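At the equal peak number, the Wnt windows had 6 DA-specific, 5 5-HT-specific and 19 common regions, a DA-specific share of 20.0% (16.9% over all regions), 10 member promoters open in all libraries and 0 open in DA only. The difference between the group means of the percent of Wnt regions with a peak, 37.4 points as deposited, was -1.16. With 10000 peaks per library the values were 3, 3 and 3 regions, a share of 42.9% (3 of 7; 11.0% over all regions), 1 and 0 promoters and a difference of -0.408. With the upper 50% of each library's peaks they were 26, 1 and 10 regions, a share of 54.2% (36.8% over all regions) and 7 promoters open in all. Windows extended by 50 kb held 81 DA-specific and 62 common regions, since they are wider, and their DA-specific share was 43.1% in place of 40.6%. For the numbers of peaks the cause was not tested.

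Leaving out 1 library at a time gave 43 to 70 DA-specific regions (70 without DA replicate 1, 69 without 5-HT replicate 1), 0 to 15 5-HT-specific (15 without 5-HT replicate 2, 6 without 5-HT replicate 1), 36 to 62 common (62 without 5-HT replicate 2), and a share of 40.6 to 65.1%. This share came to 51.1% when DA replicate 1 and to 65.1% when 5-HT replicate 1 was left out, beside 50.7% and 60.2% over all regions. Promoters open in DA only numbered 2 to 10, with 4 without DA replicate 1 and 10 without 5-HT replicate 1 (10.3% and 25.6%, beside 3.08% and 9.87% of protein-coding genes). These counts ask for fewer libraries by construction.

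With a replicate block the difference of the means was 38.0 points, the same as without DA replicate 3. Correlations of deviations between a DA and a 5-HT library lay between -0.055 and 0.055 over the common regions. Deviations of only 2 5-HT libraries mirror each other, so these values cannot decide whether the replicate numbers are paired.

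Of the 36 common regions, 19 stood higher in every DA library by percentile, 31 by score and 3 by position from the strongest peak; of the 16 member promoters among them these were 5, 13 and 0. At the equal peak number 6 of 10 dopaminergic markers had a promoter peak in every DA library, and the other pathway genes had 9 DA-specific regions. The scale by position and the marker count at the equal peak number were chosen after the data were seen. TCF/LEF words were in 17.6% of the wider 500 bp stretches around the middle of Wnt regions, beside 17.6% for all regions. The median Wnt region was 421 bp wide, so stretches of narrower regions reached past their ends. Settings that changed the merging, the overlap or the promoter kept every count within 1.5 times. The depth is unknown, so a score of 0 is not shown to be closed chromatin.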
